A study of Caenorhabditis elegans with 66 samples.

Results

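Short capped RNA from the nucleoplasm of germ nuclei was compared between rescue (*mj261; mjSi70*) and *rpb-9* (*mj261*) animals, with 2 libraries of each genotype. These 4 libraries were the nucleoplasmic (NP) rows of both genotypes in the precursor table, out of 12 short capped RNA libraries and 66 samples in the series. The *mj261* allele is a premature stop codon in the C-terminal, TFIIS-like domain of RPB-9, and both genotypes carry it. Rescue animals carry in addition *mjSi70*, a single-copy transgene on chromosome I that expresses *rpb-9* from the germline promoter of *mex-5* with the 3′ end of *par-5*. All animals were grown at 20C on HB101 bacteria, and nuclei were isolated from young adults, although the labels give the tissue as whole animal. The 2 nucleoplasmic wild-type libraries are given beside both genotypes, and the 4 nascent (chromatin-bound) libraries of rescue and *rpb-9* animals for the contrast with the other fraction. The labels do not say what separates replicates of a genotype, so p-values measure only the spread between these libraries, which may be technical. The precursor table holds no reads of *rpb-9* itself, so the genotypes were not checked against the targeted gene in these libraries.

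RPB-9 is a small subunit of RNA polymerase II that acts in transcript cleavage after backtracking and in elongation. In *C. elegans*, piRNAs are made from single short transcription units: each precursor is a capped RNA that starts a pair of nucleotides upstream of the mature piRNA, and it is then trimmed at both ends to a mature piRNA that begins with U and is bound by the Argonaute PRG-1. Motif-dependent (type I) loci lie mostly in a pair of clusters on chromosome IV and carry an upstream Ruby motif with the core GTTTC. Motif-independent (type II) loci are found at transcription start sites of other genes across the genome. Transcription of motif-dependent loci ends shortly downstream of the piRNA, and RNA polymerase II termination there depends on the Integrator complex.

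The sequences of 5 motif-dependent loci on chromosome IV are shown because the length and abundance values below turn on them. All are read 5′ to 3′ on the strand of the piRNA in WBcel235 (ce11), the same assembly as the deposited coordinates. In the 60 nt that precede the precursor, capitals mark GTTTC, and in the precursors, capitals mark the 21 nt of the listed piRNA or as much of it as the precursor holds.
21UR-3180 upstream, chrIV:16033490-16033549, plus strand: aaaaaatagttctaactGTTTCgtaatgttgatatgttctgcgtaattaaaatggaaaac
21UR-3180 precursor of 25 nt, chrIV:16033550-16033574, plus strand: acTCGGAACATAAAGAATGAACAtt
21UR-3180 precursor of 34 nt, chrIV:16033550-16033583, plus strand: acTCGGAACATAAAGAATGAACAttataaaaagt
21UR-1437 upstream, chrIV:16043504-16043563, minus strand: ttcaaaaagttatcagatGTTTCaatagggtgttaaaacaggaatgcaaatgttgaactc
21UR-1437 precursor of 25 nt, chrIV:16043479-16043503, minus strand: atTCCGACCGTTGTTACAGCTAAct
21UR-1437 precursor of 20 nt, chrIV:16043484-16043503, minus strand: atTCCGACCGTTGTTACAGC
21UR-388 upstream, chrIV:13917688-13917747, minus strand: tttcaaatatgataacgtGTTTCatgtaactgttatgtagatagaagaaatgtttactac
21UR-388 precursor of 28 nt, chrIV:13917660-13917687, minus strand: atTCGGGAGGAAATATTCGGGACgaaat
21UR-5491 precursor of 34 nt, chrIV:15757869-15757902, plus strand: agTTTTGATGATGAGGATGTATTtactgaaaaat
21UR-621 precursor of 28 nt, chrIV:16074083-16074110, minus strand: atTTCACGACTTGAAGGACTCGAcaatt
21UR-621 precursor of 57 nt, chrIV:16074054-16074110, minus strand: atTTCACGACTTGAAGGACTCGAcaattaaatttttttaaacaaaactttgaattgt

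In these examples the motif ended 38 nt before the precursor at 21UR-3180 and 37 nt before it at 21UR-1437 and 21UR-388, while the 60-nt windows of 21UR-5491 and 21UR-621 held no GTTTC. Over the motif-dependent loci with reads in any of the 4 libraries, mitochondrial loci left out, GTTTC stood on the piRNA strand of this window at 1205 of 1726 loci (69.8%), against 181 of 1439 motif-independent loci (12.6%) and 5187 of 11377 loci of the table (45.6%). On the other strand it was found at 8.05% of the motif-dependent, 8.41% of the motif-independent and 7.19% of all loci. The longer CTGTTTCA, which contains GTTTC, stood on the piRNA strand at 27.6% of the motif-dependent loci, 0.0695% of the motif-independent loci and 16.8% of all loci of the table, and on the other strand at 0.927%, 0.0695% and 0.396% of them.

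Read totals were 1299625 and 1016584 in rescue, 569465 and 1338405 in *rpb-9* and 1593124 and 577856 in wild type. Most of these reads came from loci that lie on annotated snoRNA, snRNA, rRNA, tRNA or miRNA genes (structured RNA genes): 83.5% and 90.2% in rescue, 84.6% and 92.7% in *rpb-9* and 93.7% and 93.5% in wild type. A single motif-independent locus on the snoRNA gene W04D2.7 (chromosome V, 12491282) took 77.2% and 82.2% of reads in rescue and 70.9% and 90.0% in *rpb-9*. Values by class are therefore given without loci on structured RNA genes, unless stated, which left 214137 and 100033 reads in rescue, 87791 and 97223 in *rpb-9* and 100805 and 37627 in wild type. Reads carry no molecular identifiers, so intervals cover counting error only.

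Motif-dependent precursors came from more loci and had a higher normalised signal in both rescue libraries than in either *rpb-9* library. Rescue libraries held reads at 958 and 986 motif-dependent loci, against 596 and 406 in *rpb-9* and 673 and 461 in wild type, a mean of 972 ± 19.8 in rescue and 501 ± 134 in *rpb-9* (SD, n = 2 each). Distinct motif-dependent sequences numbered 1659 and 1719 in rescue, against 987 and 600 in *rpb-9* and 1187 and 741 in wild type. The summed normalised signal of these loci (reads multiplied by the library constant of the authors) was 7145 and 11043 in rescue, 6339 and 3026 in *rpb-9* and 10750 and 7484 in wild type, a rescue mean 1.94 times the *rpb-9* mean. In loci and in distinct sequences wild type overlapped *rpb-9* and lay below both rescue libraries, whereas its signal lay above both *rpb-9* libraries. None of these 3 measures overlapped between rescue and *rpb-9*. With 2 libraries against 2 the exact permutation test cannot go below a two-sided p of 0.333, and it gave 0.333 for each. Reads outside structured RNA genes were also higher in both rescue libraries than in either *rpb-9* library, and their part in these counts was not tested. As a share of all reads of a library, structured RNA genes included, motif-dependent reads overlapped between rescue and *rpb-9*. This share, which needs no constant, was 0.545% and 0.620% in rescue, 1.03% and 0.150% in *rpb-9* and 0.410% and 0.594% in wild type. Fewer nuclei of a stage and less precursor per nucleus cannot be told apart in these bulk samples.

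Motif-independent precursors, which mark ordinary promoters, were also found at more loci in rescue libraries. Rescue had reads at 801 and 778 of them, against 652 and 487 in *rpb-9* and 422 and 323 in wild type. Their signal was 208767 and 164163 in rescue, 88524 and 143891 in *rpb-9* and 155087 and 74506 in wild type, a rescue mean 1.605 times the *rpb-9* mean, again with no overlap (exact permutation p = 0.333, two-sided). The ratio of motif-dependent to motif-independent distinct sequences within a library, which needs no scaling, was 0.745 and 0.808 in rescue, 0.562 and 0.423 in *rpb-9* and 1.05 and 0.875 in wild type (exact permutation p = 0.333, two-sided). Counted over reads, with structured RNA genes included, the log2 of that ratio was −4.36 and −4.20 in rescue and −3.10 and −6.43 in *rpb-9*. The *rpb-9* libraries thus lay on either side of rescue, the difference was 0.49 (exact permutation p = 1, two-sided), and without *rpb-9* replicate 2 it was −1.18. Without structured RNA genes the log2 ratio over reads overlapped too, at −4.87 and −3.89 in rescue and −3.80 and −5.57 in *rpb-9*.

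**Figure D1:**
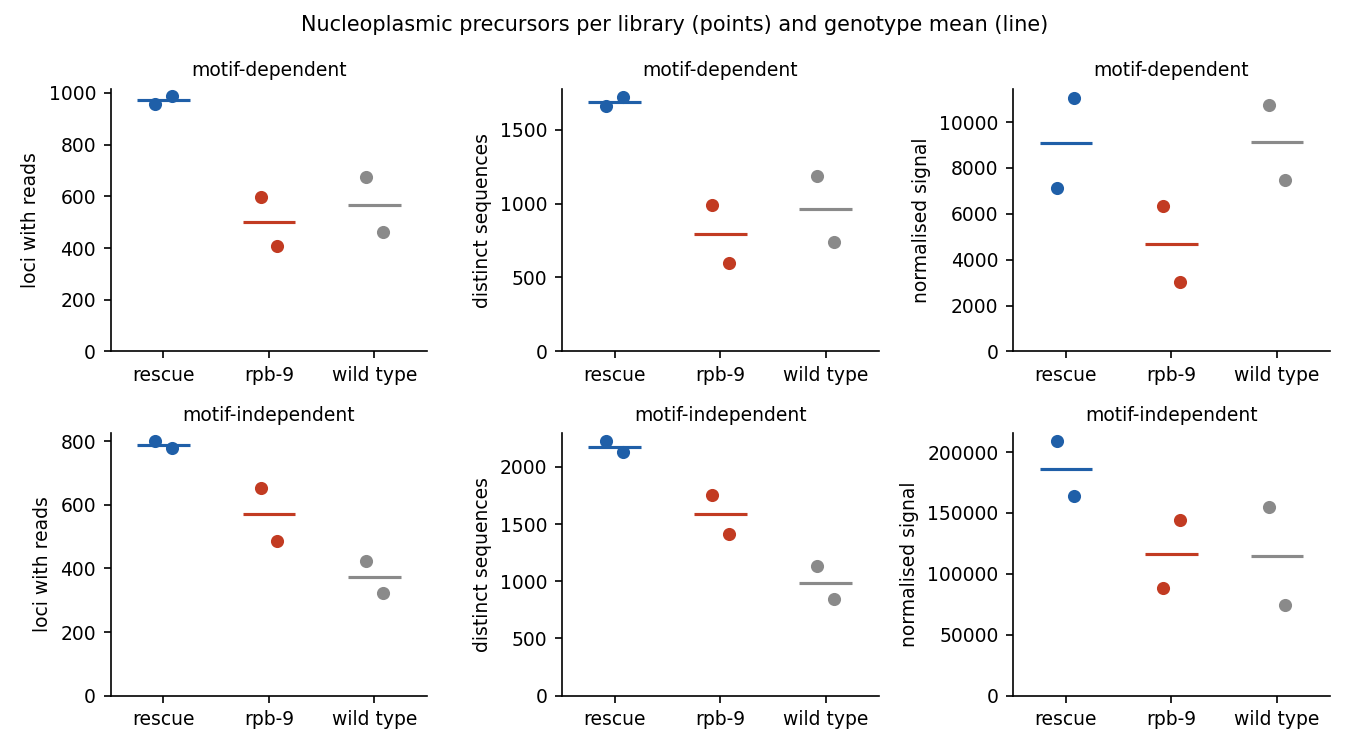
Loci with reads, distinct sequences and normalised signal per nucleoplasmic library for motif-dependent (upper row) and motif-independent (lower row) loci without structured RNA genes, with points for libraries and lines for genotype means (n = 2). In all 6 panels both rescue points lie above both *rpb-9* points, and motif-dependent loci number 958 and 986 in rescue against 596 and 406 in *rpb-9*.

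Detection over the 4 libraries showed how this difference was spread over loci. Of 1729 motif-dependent loci with reads in any library, 150 had reads in all 4, and these carried 11128 reads. Another 160 loci had reads in both rescue libraries and in no *rpb-9* library (1405 reads), whereas 16 had reads in both *rpb-9* libraries and in no rescue library (142 reads). A further 771 loci were read in 1 rescue library alone and 247 in 1 *rpb-9* library alone, so most loci were near the detection limit. Of 1440 motif-independent loci, 215 had reads in all 4 libraries, 78 in both rescue libraries only and 17 in both *rpb-9* libraries only. GTTTC preceded 104 of the 160 motif-dependent loci seen in both rescue libraries only (65.0%) and 112 of the 150 seen in all 4 (74.7%). The longer CTGTTTCA ran the other way, at 51 (31.9%) and 33 (22%) of these loci. Over the motif-dependent loci with reads in any of the 4 libraries, the shares were 69.8% for GTTTC and 27.6% for CTGTTTCA.

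The small cluster on chromosome IV (cluster I, 788 loci of the table between 4789336 and 6994431) had reads at fewer loci in *rpb-9*. It had reads at 69 and 66 loci in rescue, against 18 and 14 in *rpb-9* and 58 and 36 in wild type, and a signal of 332 and 492 in rescue, 122 and 46.8 in *rpb-9* and 714 and 471 in wild type. The large cluster (cluster II, 5247 loci between 13568051 and 17199397) had reads at 873 and 898 loci in rescue, against 564 and 380 in *rpb-9* and 609 and 417 in wild type, with a signal of 6636 and 10314 in rescue and 6080 and 2911 in *rpb-9*. Rescue means were thus 4.88 times the *rpb-9* mean signal in cluster I and 1.89 times in cluster II. Motif-dependent loci on chromosome IV outside the clusters (4 and 9 loci in rescue, 3 and 2 in *rpb-9*) and on other chromosomes (12 and 13 in rescue, 11 and 10 in *rpb-9*) were few.

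Within a library, cluster I therefore supplied a larger share of motif-dependent sequences in rescue. The share was 5.85% (95% Wilson interval 4.82 to 7.08) and 5.29% (4.33 to 6.46) in rescue, 2.33% (1.56 to 3.47) and 2.33% (1.39 to 3.88) in *rpb-9*, and 7.33% and 7.15% in wild type. Over reads it was 4.64% and 4.46% in rescue and 1.93% and 1.55% in *rpb-9*. The rescue and *rpb-9* libraries did not overlap in either count (exact permutation p = 0.333, two-sided), and this share was looked at after the cluster values had been seen. In the nascent fraction the share of sequences was 6.69% and 6.94% in rescue, 3.84% and 3.39% in *rpb-9* and 7.77% and 7.71% in wild type.

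**Figure D2:**
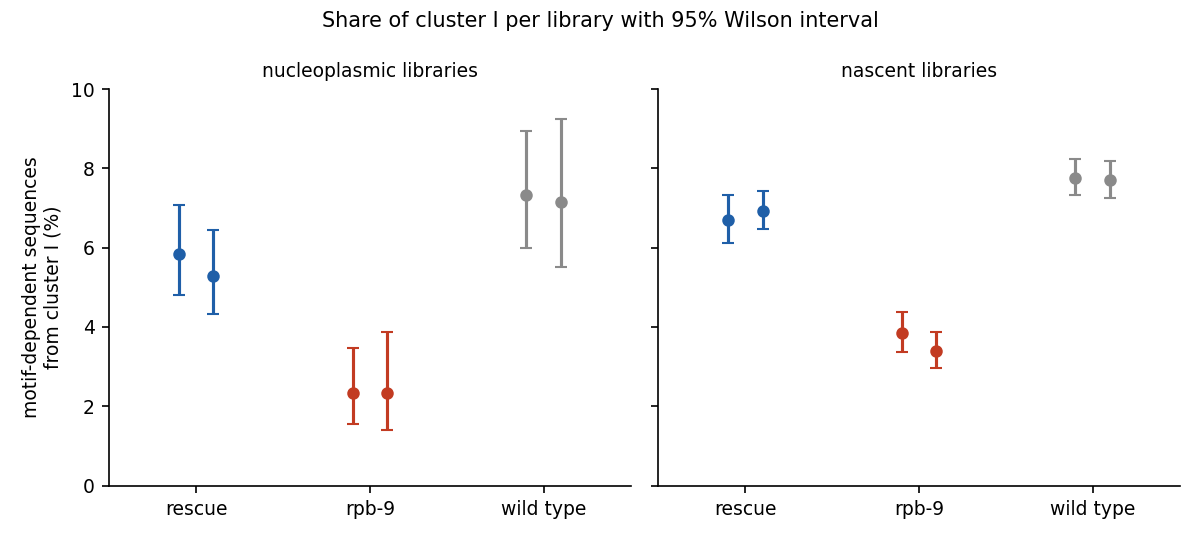
Share of distinct motif-dependent sequences that come from cluster I, in percent, for each nucleoplasmic (left) and nascent (right) library, with the 95% Wilson interval as bars. Both rescue libraries lie above both *rpb-9* libraries in either fraction, at 5.85% and 5.29% against 2.33% and 2.33% in the nucleoplasm.

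Tested locus by locus, no single precursor was called. Of 357 loci with at least 10 reads in at least 2 of the 6 nucleoplasmic libraries, 0 (0%) passed a Benjamini-Hochberg adjusted p of 0.05 in the quasi-likelihood test of edgeR, while 38 (10.6%) had an unadjusted p under 0.05, of which 35 were higher and 3 lower in rescue. DESeq2 called 1 locus, at 8781699 on chromosome I, which is described below. Libraries of the genotypes stood apart at 123 loci with rescue higher (34.5%) and at 24 with rescue lower (6.72%). Among the 175 tested motif-dependent loci outside structured RNA genes, 67 stood apart with rescue higher and 7 with rescue lower, 140 had a log2 fold change above 0, and the median was 0.94 (quartiles 0.20 and 1.70) beside a median standard error of 1.43. Among the 145 motif-independent loci, 49 stood apart with rescue higher and 11 lower, and the median was 0.50. Over all 176 tested motif-independent loci it was 0.43, but 0.015 with TMM and −0.15 with RLE scaling, which put the median of all 357 loci at 0.30 and 0.14 in place of 0.71. The medians did not move when loci with no reads in a genotype were set at the bound that 3 reads over both libraries allow. The median over all 181 tested motif-dependent loci, 0.91, became 0.52 with TMM and 0.37 with RLE scaling, 1.94 without *rpb-9* replicate 1, 0.53 without rescue replicate 2 and 0.52 without *rpb-9* replicate 2.

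The most read motif-dependent precursors showed how close to replicate spread these differences were. 21UR-5491 (chromosome IV, 15757871 to 15757891, plus strand), the most read locus of this class outside structured RNA genes, had 325 and 321 reads in rescue, 560 and 184 in *rpb-9* and 381 and 165 in wild type. Its libraries overlapped, with a log2 fold change of 0.01 (SE 0.67, edgeR adjusted p = 0.992). 21UR-3180 (16033552 to 16033572, plus strand) had 131 and 182 reads in rescue, 205 and 38 in *rpb-9* and 87 and 29 in wild type, and its libraries overlapped too (log2 fold change 0.69, SE 0.81, edgeR adjusted p = 0.893). 21UR-5842 (16060689 to 16060709, minus strand) had 121 and 183 reads in rescue, 82 and 34 in *rpb-9* and 219 and 102 in wild type, and both rescue libraries were above both *rpb-9* libraries without reaching a call (log2 fold change 1.65, SE 0.73, edgeR adjusted p = 0.42).

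Both other loci among the 5 most read of this class lie on structured RNA genes. 21UR-2844 is listed on the snoRNA gene T26A8.6 (8428716 to 8428736, minus strand) and had 52852 and 46012 reads in rescue, against 53406 and 13210 in *rpb-9* and 22770 and 8271 in wild type (log2 fold change 0.79, SE 0.76). 21UR-458 lies on *smy-12*, a gene for an SmY snRNA, and had 207 and 124 reads in rescue, against 152 and 49 in *rpb-9* (log2 fold change 0.83, SE 0.77). Of the motif-dependent piRNAs named in the study, 21UR-8099 had 0 reads in all 6 nucleoplasmic libraries, which allows up to 3 reads in each, and 21UR-4997 is not analysed here.

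The motif-dependent loci with the lowest unadjusted p among those whose libraries stood apart were picked after their values had been seen, and none was called. 21UR-3502 had 34 and 60 reads in rescue, 7 and 0 in *rpb-9* and 12 and 21 in wild type. 21UR-1437 (16043481 to 16043501, minus strand) had 61 and 65 reads in rescue, 21 and 7 in *rpb-9* and 60 and 40 in wild type, with a log2 fold change of 2.37 (SE 0.79, edgeR adjusted p = 0.376). 21UR-6103 had 9 and 17 reads in rescue, 2 and 0 in *rpb-9* and 47 and 19 in wild type. The wild-type libraries were above the *rpb-9* libraries at all 3 loci. Picking loci with low *rpb-9* values favours that order, so it is no separate evidence. 21UR-3502 and 21UR-6103 reached 10 reads in no *rpb-9* library, so their direction partly follows from the filter.

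Of the 175 tested motif-dependent loci outside structured RNA genes, 8 had no reads in either *rpb-9* library and 2 had none in either rescue library. Over all 357 tested loci these numbers were 10 and 3. A locus without reads in a genotype can pass the filter only through the other genotype and wild type, so its direction partly follows from the filter. 21UR-388 (13917665 to 13917685, minus strand) had 11 and 8 reads in rescue, 0 and 0 in *rpb-9* and 13 and 8 in wild type, and the 28-nt precursor printed above had 0 and 4 reads in rescue and 8 and 1 in wild type. 21UR-2300, which lies in *athp-3*, had 28 and 2 reads in rescue, 0 and 0 in *rpb-9* and 25 and 9 in wild type. In the opposite order, 21UR-3092 had 0 and 0 reads in rescue, 14 and 8 in *rpb-9* and 7 and 10 in wild type, and 21UR-516 had 22 and 4 in rescue, 45 and 17 in *rpb-9* and 30 and 30 in wild type.

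In cluster I, 4 motif-dependent loci were abundant enough to be tested, and libraries stood apart at 3 of them, all with rescue higher. Over all 357 tested loci, 123 (34.5%) stood apart with rescue higher. 21UR-8044 (5326813) had 38 and 42 reads in rescue, 13 and 2 in *rpb-9* and 61 and 39 in wild type. 21UR-11795 (5177494) had 12 and 54 reads in rescue, 3 and 6 in *rpb-9* and 75 and 14 in wild type, and 21UR-10495 (6075540) had 15 and 21 in rescue, 5 and 4 in *rpb-9* and 22 and 4 in wild type. Only 21UR-103 (4835169) overlapped, with 27 and 2 reads in rescue and 23 and 0 in *rpb-9*. 21UR-11795 and 21UR-10495 reached the minimum of 10 reads only in rescue and wild-type libraries, so that their direction partly follows from the filter, which also holds for tested loci elsewhere.

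**Figure D3:**
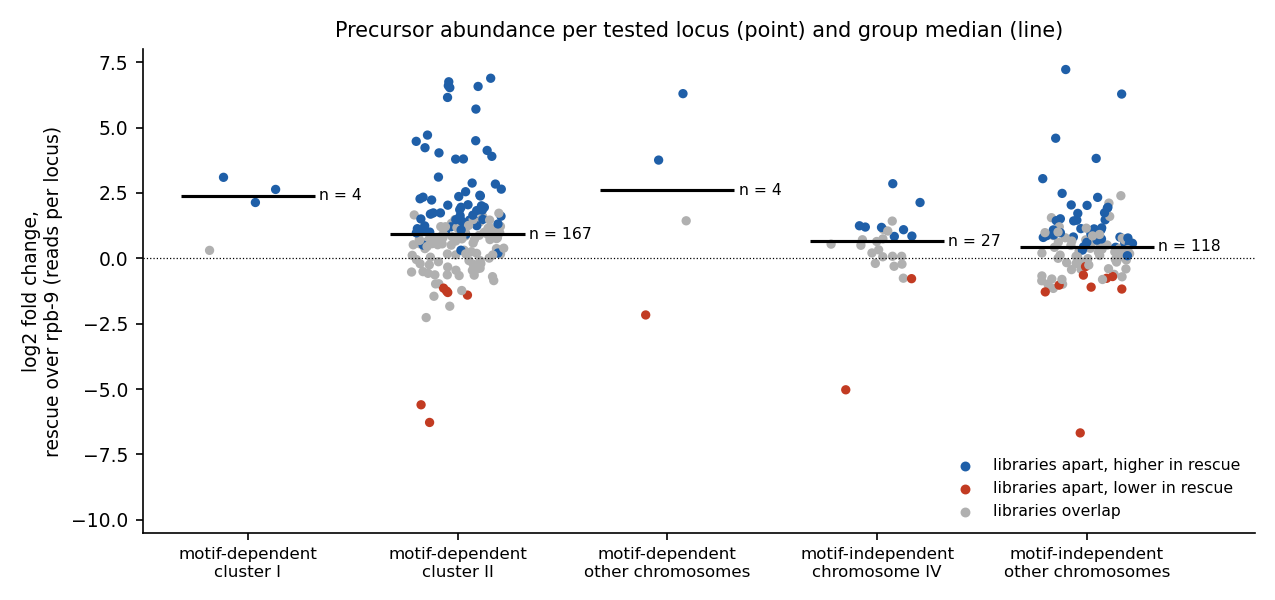
Log2 fold change of reads per locus, rescue over *rpb-9*, for each tested locus outside structured RNA genes (points) by class and position, with the group median as a line; fitted values at loci with no reads in a genotype depend on the prior count. Most points of the 167 motif-dependent cluster II loci lie above 0, around their median of 0.91. Of the 4 motif-dependent cluster I loci 3 stand apart with rescue higher, beside 34.5% of all 357 tested loci, structured RNA genes included.

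Motif-independent loci are read from other genes, and no fold change of the 4 described first here exceeded 2 standard errors. *ndk-1*, which encodes a nucleoside diphosphate kinase (chromosome I, 10553833), had 47615 and 41539 reads in rescue, 31330 and 19444 in *rpb-9* and 13814 and 10419 in wild type, and the normalised signal of rescue stood above *rpb-9* (log2 fold change 0.93, SE 0.66, edgeR adjusted p = 0.811). ZK265.11, a non-coding RNA gene within the homeobox gene *ceh-8* (chromosome I, 8245600), had 114231 and 34471 reads in rescue, 30184 and 65928 in *rpb-9* and 68677 and 16259 in wild type, with a log2 fold change of 0.41 (SE 0.84). The snoRNA gene C08D8.3 (chromosome V, 8349111) had 22859 and 26045 reads in rescue, 18815 and 17831 in *rpb-9* and 9656 and 4377 in wild type, with a log2 fold change of 0.54 (SE 0.68). For W04D2.7 the log2 fold change was 0.13 (SE 0.98). Under TMM, RLE and TMM on motif-independent loci, ZK265.11, W04D2.7 and 21UR-5491 were below 0, and C08D8.3 was below 0 under TMM and RLE but at 0.096 under TMM on motif-independent loci.

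Among motif-independent loci picked after their values had been seen, *rbm-3.2*, which encodes an RNA-binding protein, had 219 and 215 reads in rescue, 74 and 25 in *rpb-9* and 97 and 67 in wild type (log2 fold change 2.33, SE 0.71). *glh-2*, which encodes a Vasa-like helicase of germ granules, had 10 and 10 reads in rescue, 0 and 0 in *rpb-9* and 8 and 4 in wild type. It passed the filter of at least 10 reads in at least 2 libraries only through rescue, so its direction follows from the filter. *hsp-90*, which encodes a chaperone, ran the other way with 8 and 10 reads in rescue, 21 and 26 in *rpb-9* and 7 and 6 in wild type (log2 fold change −1.28, SE 1.08). A locus on chromosome IV (6348127), in no annotated gene on its strand, had 0 and 2 reads in rescue, 75 and 17 in *rpb-9* and 1 and 1 in wild type. Only *rpb-9* libraries reached 10 reads at this locus, so its direction follows from the filter as well. Of 107 tested loci within protein-coding genes, 41 stood apart with rescue higher and 6 with rescue lower, and their median log2 fold change was 0.49. Over all 357 tested loci, 123 (34.5%) stood apart with rescue higher and 24 (6.72%) with rescue lower, so these counts are not particular to protein-coding genes.

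Small nuclear RNA genes, whose products serve in splicing and trans-splicing, went in both directions. Of 23 tested loci on them, 6 stood apart with rescue higher and 4 with rescue lower (median log2 fold change 0.71), and 9 loci on snoRNA genes had a median of −0.07. Over all 357 tested loci, 34.5% stood apart with rescue higher and 6.72% with rescue lower, and the median was also 0.71. *sls-2.1*, a gene for an SL2 spliced leader RNA, had 100 and 157 reads in rescue, 17 and 18 in *rpb-9* and 18 and 7 in wild type (log2 fold change 3.04, SE 0.82, edgeR adjusted p = 0.376). 21UR-3398, on *smy-10*, had 73 and 74 reads in rescue, 8 and 5 in *rpb-9* and 67 and 3 in wild type. *sls-2.16*, a gene of the same kind as *sls-2.1*, had 596 and 286 reads in rescue, 1335 and 403 in *rpb-9* and 511 and 226 in wild type. These 3 loci were also chosen after their values had been seen, and 21UR-3398 reached 10 reads in no *rpb-9* library.

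The fifth of the most read motif-independent loci, at 8781699 on chromosome I, in no annotated gene and listed under 10 piRNA names, had 15905 and 1519 reads in rescue, 565 and 107 in *rpb-9* and 393 and 415 in wild type (log2 fold change 4.60, SE 1.00, edgeR adjusted p = 0.232). Without rescue replicate 1 the log2 fold change was 2.78, and over distinct sequences in place of reads it was −0.37. Nascent libraries had the opposite order, with 1447 and 181 reads in rescue, 23773 and 62329 in *rpb-9* and 16708 and 83 in wild type, and a nascent log2 fold change of −5.12. Of 3107 loci tested for a difference between the fractions in edgeR, it alone was called (0.0322%), whereas 204 (6.57%) had an unadjusted p under 0.05. Replicates of 1 genotype differed widely here, from 83 to 16708 reads in nascent wild type.

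Nucleoplasmic motif-dependent precursors were shorter in rescue than in *rpb-9*. The median length over distinct sequences was 28 and 27 nt in rescue, 30 and 30 nt in *rpb-9* and 28 and 27 nt in wild type. The mean was 30.8 and 28.3 nt in rescue, against 32.4 and 31.8 nt in *rpb-9* and 29.6 and 27.7 nt in wild type, a difference of −2.57 nt between rescue and *rpb-9* (exact permutation p = 0.333, two-sided, the smallest possible). Rescue libraries did not overlap with *rpb-9* libraries in either measure, and without rescue replicate 2 the difference in the mean was −1.34 nt.

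Some length classes separated the genotypes and others did not. Sequences of 18 to 23 nt made up 15.7% and 21.8% in rescue, against 11.96% and 8% in *rpb-9*, and those of 35 to 39 nt made up 7.66% and 5.24% in rescue, against 11.9% and 11% in *rpb-9*, with no overlap in either class. Those of 24 to 29 nt overlapped, at 41.7% and 46.3% in rescue and 33.9% and 41.7% in *rpb-9*, as did those of 50 to 75 nt, at 6.27% and 2.04% in rescue and 6.89% and 5.33% in *rpb-9*. Sequences of 40 nt or more were 13.98% (95% Wilson interval 12.4 to 15.7) and 6.81% (5.71 to 8.10) in rescue, 16.8% (14.6 to 19.3) and 14.8% (12.2 to 17.9) in *rpb-9* and 10.03% and 5.94% in wild type. Rescue replicate 1 was thus within the counting interval of *rpb-9* replicate 2 for these long sequences. The difference in this share was −5.43 percentage points, and −1.84 without rescue replicate 2. With 45 nt as the limit the libraries overlapped, at 9.83% and 4.01% in rescue and 10.7% and 8.33% in *rpb-9*. Over reads, sequences of 40 nt or more were 11.2% and 4.63% in rescue, 11.8% and 13.9% in *rpb-9* and 7.49% and 4.25% in wild type.

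Motif-independent precursors were longer, and their length did not separate the genotypes. Their median was 39 and 33 nt in rescue, 39 and 39 nt in *rpb-9* and 39 and 37 nt in wild type, and 47.8% and 33.3% were of 40 nt or more in rescue, against 47.3% and 47.0% in *rpb-9* and 47.7% and 43.7% in wild type (exact permutation p = 1, two-sided). Rescue replicate 2 stood apart from the 5 other libraries, and without it the difference in the mean was 0.042 nt. Over all loci, structured RNA genes included, the median was 32 and 29 nt in rescue, 35 and 36 nt in *rpb-9* and 31 and 30 nt in wild type. In the nascent fraction, motif-dependent medians were 27 and 27 nt in rescue, 31 and 31 nt in *rpb-9* and 29 and 29 nt in wild type.

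**Figure D4:**
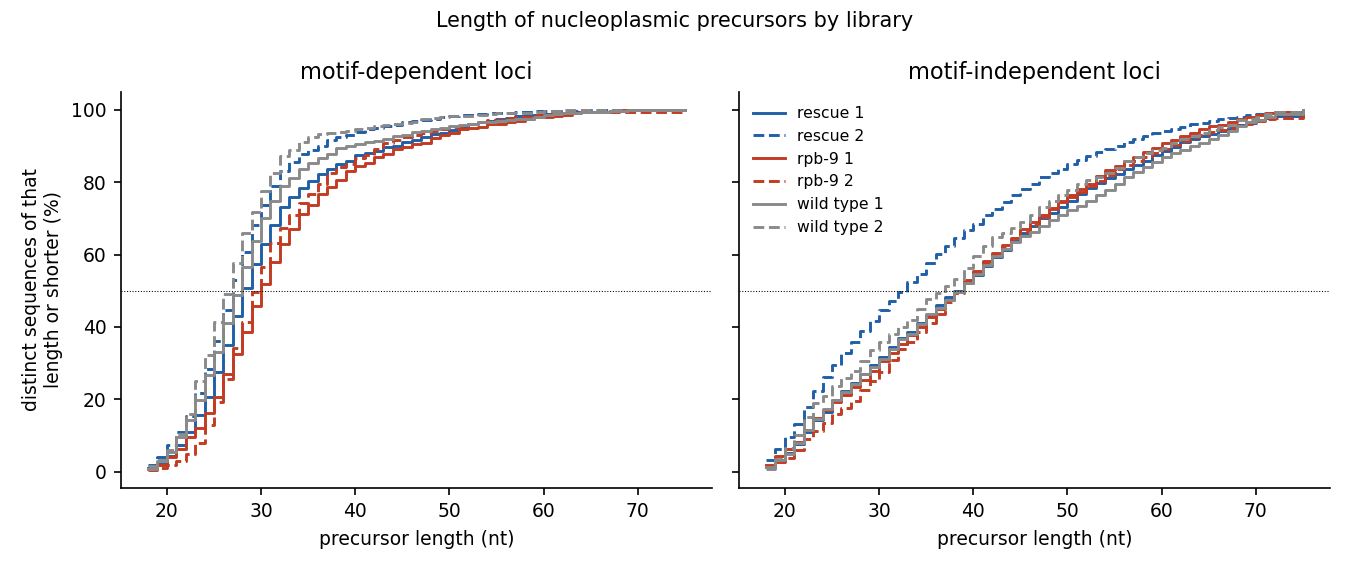
Cumulative share of distinct sequences, in percent, by precursor length in nt for each nucleoplasmic library, at motif-dependent (left) and motif-independent (right) loci without structured RNA genes. At motif-dependent loci both rescue curves cross 50% at 28 and 27 nt, below both *rpb-9* curves at 30 nt, whereas at motif-independent loci rescue replicate 1 and both *rpb-9* libraries cross at 39 nt and rescue replicate 2 at 33 nt.

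Library medians depend on which loci are read, so lengths were also compared at loci shared by pairs of libraries. At shared motif-dependent loci the median difference in mean length was −0.5 nt between rescue 1 and *rpb-9* 1 (174 loci shorter and 119 longer in rescue), 0 nt between rescue 1 and *rpb-9* 2 (124 and 93), −1.5 nt between rescue 2 and *rpb-9* 1 (206 and 98) and −1 nt between rescue 2 and *rpb-9* 2 (156 and 78). Within genotypes it was 0.5 nt between rescue 1 and rescue 2 (167 shorter and 243 longer in rescue 1) and 0 nt between *rpb-9* 1 and *rpb-9* 2 (82 and 88). In all 4 pairs across genotypes more motif-dependent loci were shorter than longer in rescue, and the spread between the rescue libraries was of similar size. At shared motif-independent loci the median difference was 0 nt between rescue 1 and *rpb-9* 1 (170 shorter and 173 longer) and *rpb-9* 2 (133 and 157). Between rescue 2 and *rpb-9* 1 it was −2 nt (222 and 110), and between rescue 2 and *rpb-9* 2 −1.5 nt (193 and 105). Rescue 2 was thus shorter than *rpb-9* in both classes.

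A test per locus was possible at 66 loci with at least 3 distinct sequences in each of the 6 nucleoplasmic libraries, and limma called 0 of them (0%), with 4 (6.06%) at an unadjusted p under 0.05. Rescue stood apart as shorter at 15 loci (22.7%) and as longer at 6 (9.09%). Of 19 motif-dependent loci among them, 16 had a negative difference, 8 stood apart as shorter and 0 as longer, and the median difference was −1.16 nt. Of 47 motif-independent loci, 30 had a negative difference, 7 stood apart as shorter and 6 as longer, and the median was −0.67 nt. A filter chosen after seeing the data asked for at least 1 sequence in each of the 4 libraries. Under it, 51 of 156 motif-dependent loci stood apart as shorter and 16 as longer (median −1.003 nt). Over all 404 loci of this filter, 90 stood apart as shorter and 45 as longer, and at the 248 motif-independent loci 39 and 29. Limma again called 0 of the 404 loci.

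At 21UR-3180 reads leaned to shorter forms in rescue, but its mean length was not called in the test per locus. Its 25-nt precursor, printed above, had 20 and 52 reads in rescue, 12 and 4 in *rpb-9* and 20 and 4 in wild type, whereas its 34-nt precursor, which runs 9 nt further, had 19 and 8 reads in rescue, 55 and 4 in *rpb-9* and 14 and 0 in wild type. The most read length was 25 nt in both rescue libraries, against 34 and 33 nt in *rpb-9* and 25 and 26 nt in wild type. Precursors of 32 nt or more took 31.3% and 21.98% of the reads of the locus in rescue, 63.9% and 65.8% in *rpb-9* and 27.6% and 20.7% in wild type. The limit of 32 nt was not part of the planned comparison, and *rpb-9* replicate 2 had only 38 reads at this locus. The mean over distinct sequences, which ignores reads, was 29.4 and 30.9 nt in rescue and 31.5 and 31.2 nt in *rpb-9* (difference −1.16 nt, SE 1.58, limma adjusted p = 0.977).

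Other loci behaved differently. At 21UR-5491 the 34-nt precursor printed above took 85.5% and 82.9% of reads in rescue, 86.4% and 85.3% in *rpb-9* and 91.1% and 89.7% in wild type, so that the same form led in all 6 libraries. At 21UR-1437 the most read precursor was of 25 nt in rescue (48 and 47 reads) and wild type (28 and 20 reads). In *rpb-9* the 25-nt form had 10 and 3 reads and the 20-nt form 10 and 4. In rescue the 20-nt form had 1 and 9 reads. That 20-nt form ends within the 21 nt of the piRNA. These forms thus tied in *rpb-9* replicate 1, and the locus had only 21 and 7 reads in *rpb-9*. The 20-nt form took 47.6% and 57.1% of these reads, against 1.64% and 13.8% in rescue and 10% and 10% in wild type.

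21UR-621 (16074088), picked like the other loci of this paragraph after lengths had been seen, had the largest difference in mean length among the motif-dependent loci tested. Its sequences averaged 29.3 and 25 nt in rescue, 38.8 and 37.5 nt in *rpb-9* and 34.9 and 29.8 nt in wild type, over 7 and 6 sequences in rescue and 9 and 4 in *rpb-9* (difference −11.08 nt, SE 2.86, limma adjusted p = 0.555). The longest precursors were of 46 and 28 nt in rescue, 54 and 57 nt in *rpb-9* and 49 and 49 nt in wild type. The 28-nt form printed above had 15 and 4 reads in rescue and 8 and 0 in *rpb-9*, and the 57-nt form was 1 read in *rpb-9* replicate 2. The locus had only 30 and 23 reads in rescue and 29 and 6 in *rpb-9*. Forms of 26 nt or less took 36.7% and 69.6% of them in rescue and 37.9% and 66.7% in *rpb-9*. Forms of 32 nt or more took 10% and 0% in rescue and 34.5% and 33.3% in *rpb-9*. Motif-independent loci went both ways, and the genotypes stood apart at each of the 4 named next. *smy-3* (chromosome V, 14092571) had means of 53.2 and 52.7 nt in rescue, 60 and 57.1 nt in *rpb-9* and 57.2 and 53.8 nt in wild type. *ant-1.1*, which encodes a mitochondrial adenine nucleotide carrier (chromosome III, 13463222), had 42.4 and 41 nt in rescue, 46.4 and 48.3 nt in *rpb-9* and 49.7 and 42.3 nt in wild type. T21C9.13 (chromosome V, 10597522) was longer in rescue, with 47 and 44.3 nt in rescue, 43.2 and 37.1 nt in *rpb-9* and 44.8 and 47.3 nt in wild type (difference 6.44 nt, SE 3.17). *klp-16*, which encodes a kinesin-like protein (chromosome I, 9512527), was longer too, with 47.6 and 42.4 nt in rescue, 41 and 38.8 nt in *rpb-9* and 41.8 and 41.3 nt in wild type (difference 4.54 nt, SE 2.88).

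**Figure D5:**
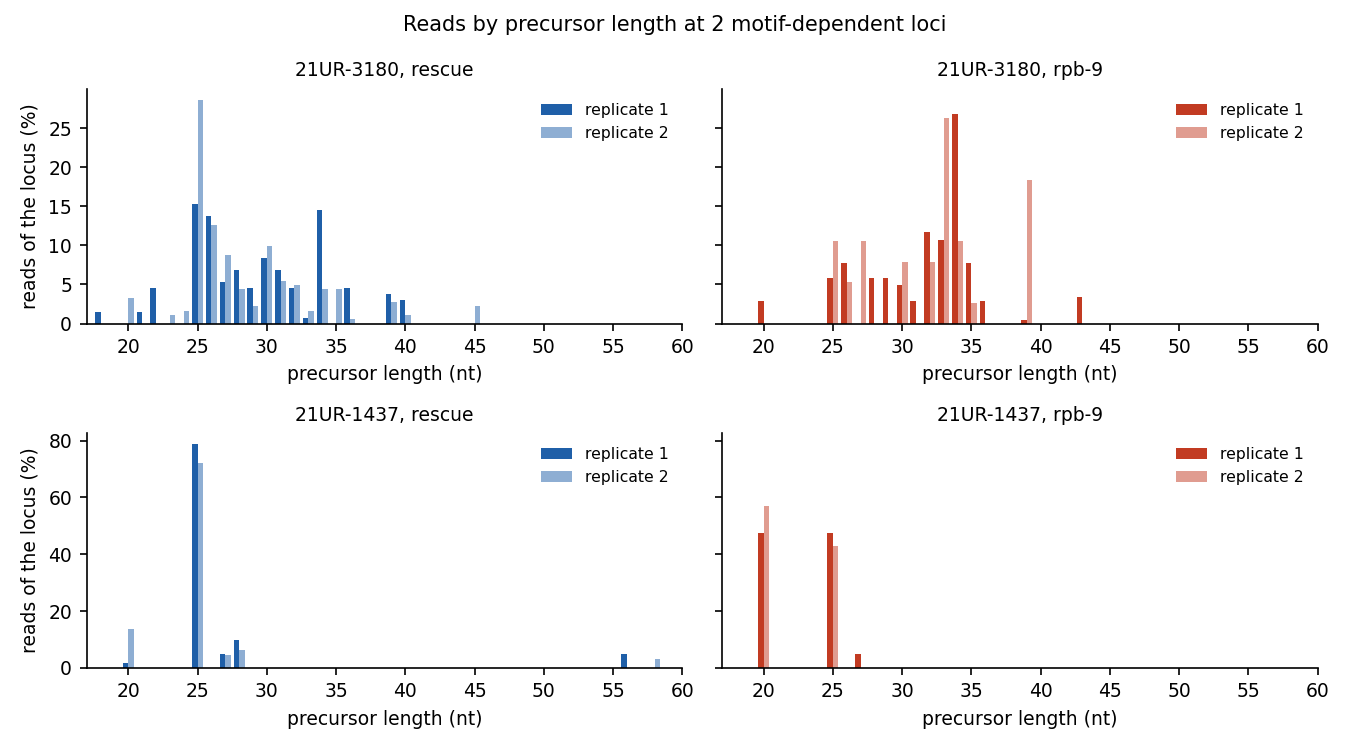
Share of the reads of a locus by precursor length in nt, for 21UR-3180 (upper row) and 21UR-1437 (lower row), in rescue (left) and *rpb-9* (right), with a bar for each replicate. At 21UR-3180 the highest bars stand at 25 nt in rescue and at 34 and 33 nt in *rpb-9*. At 21UR-1437 they stand at 25 nt in rescue. In *rpb-9* the bars of that locus at 20 and 25 nt are equal in replicate 1, and the bar at 20 nt is higher in replicate 2.

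Base composition at the ends of precursors differed little between genotypes. The first base of distinct motif-dependent sequences was A in 70.0% and 68.0% in rescue and 71.3% and 68.7% in *rpb-9*, and G in 29.3% and 31.6% in rescue and 28.4% and 30.9% in *rpb-9*, and the libraries overlapped. The last base was T in 58.3% and 56.7% in rescue, 56.3% and 54.5% in *rpb-9* and 52.4% and 53.4% in wild type, with both rescue libraries above both *rpb-9* libraries. The 10 nt downstream of the 3′ end were 74.4% and 74.0% A or T in rescue, 73.4% and 74.4% in *rpb-9* and 74.1% and 74.1% in wild type, again overlapping.

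Mature piRNAs from the same motif-dependent loci, in the 5′ dependent small RNA libraries, were more abundant in rescue than in *rpb-9*. These are single deposited values per genotype, on a log2(RPM + 1) scale, so no spread between libraries is known. Over the 716 loci with precursor reads in any of the 4 libraries and a mature value, the median was 3.34 in rescue, 1.64 in *rpb-9* and 3.32 in wild type, and 705 loci were higher and 8 lower in rescue than in *rpb-9*. Over all 2542 motif-dependent loci with a mature value, read as precursors or not, 2488 were higher and 39 lower, so the count is not particular to loci with precursor reads. 21UR-5491, whose precursor reads overlapped between the genotypes, had a mature level of 7.69 in rescue, 6.11 in *rpb-9* and 7.98 in wild type, and 21UR-3180 had 7.56 in rescue, 5.57 in *rpb-9* and 7.59 in wild type. 21UR-3092, whose precursor was read in *rpb-9* and not in rescue, had a mature level of 3.17 in rescue, 1.87 in *rpb-9* and 3.46 in wild type.

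Mature levels were higher at loci whose precursors were read more often. Medians were 5.55 in rescue and 3.604 in *rpb-9* for the 60 loci with a mature value among those read in all 4 libraries, and 4.18 in rescue and 2.17 in *rpb-9* for the 68 among those read in both rescue libraries and in no *rpb-9* library. In cluster I the median over all loci with a mature value was 1.95 in rescue, 0.44 in *rpb-9* and 1.78 in wild type, and in cluster II it was 2.10 in rescue, 0.92 in *rpb-9* and 2.06 in wild type.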

How the data were processed

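Short capped RNA was sequenced by the authors from nascent and nucleoplasmic fractions of germ nuclei (Illumina, single-end reads of 75 nt). The aligner for these libraries is not given in the sources used here, and the build was ce11. For every library, the authors deposited unnormalised read counts of each distinct precursor sequence, the length of each sequence in nt, and a signal in which counts were multiplied by 1 constant per library, whose origin is not stated. Mature piRNAs were deposited as 1 log2 value of RPM with a pseudocount of 1 per genotype; how libraries were combined is not stated.

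The table held 173010 lines at 11382 loci, and 3815 repeated lines were dropped. Sequences of 18 to 75 nt were listed and reads were of 75 nt, so a length of 75 nt can stand for a longer RNA. Of distinct motif-independent sequences, 1.62% and 0.61% in rescue and 0.57% and 2.12% in *rpb-9* were of 75 nt. Weighted by reads, their median was 75 nt in rescue replicate 1 and *rpb-9* replicate 2. Motif-dependent loci were those with a 21UR name. Cluster bounds on chromosome IV were set by hand, at 4500000 to 7000000 for cluster I and 13500000 to 17200000 for cluster II. The positions given for the clusters are those of the first and last motif-dependent loci within these bounds. Gene overlaps came from the Ensembl annotation of WBcel235 and sequences from the RefSeq assembly of the same build, and coordinates are 1-based. The column strain taken as wild type was matched by elimination.

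Reads summed per locus were tested with edgeR 4.0.16 (R 4.3.3) over the 6 nucleoplasmic libraries (quasi-likelihood test, genotype only, library sizes from the constants of the authors, at least 10 reads in at least 2 libraries). Mean length was tested with limma 3.58.1, weighted by distinct sequences. Calls were made at an adjusted p under 0.05 (Benjamini-Hochberg). The 12 libraries were used for the difference between fractions. Library values were compared with exact permutation tests over all arrangements of the libraries, and Wilson intervals came from scipy 1.17.1. Both locus tests were also tested on simulated data. TMM and RLE scaling, DESeq2 1.42.0, other filters, the replicate block and leaving out each library were the alternatives. Loci to be named were called loci with the largest differences (none was called), the 5 most read of each class and 21UR-8099 and 21UR-4997; others are marked as picked after seeing values. Loci and lists were chosen with earlier results of these data known.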

Additional observations from a re-analysis of the deposited data

Results flagged for a closer look

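At the motif-independent locus on chromosome I at 8781699, the log2 fold change of rescue over *rpb-9* in the nucleoplasm exceeded that in the nascent fraction by 9.72 (SE 1.72, edgeR adjusted p = 0.0106 for the difference between fractions). It drew attention because the effect ran in opposite directions in the fractions. Its sequence is listed under 10 piRNA names, and a replicate block and TMM scaling also called this locus. Counted over distinct sequences, the nucleoplasmic log2 fold change was −0.37.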

How the results depend on the processing

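The alternatives on structured RNA genes, on 1 sequence per library and on the share of cluster I were added after seeing the data. Loci called for abundance were 0, and 1 with no filter, with DESeq2 and without rescue replicate 2 (0 to 1 over the libraries left out), in each case the chromosome I locus at 8781699. Replicate numbers were set as a block: same-numbered libraries of rescue and *rpb-9* deviated together with a correlation of 0.13 over 357 loci, and the labels give these numbers no shared source, so they were not taken as pairs. With the block 1 locus was called for abundance, the same one, 0 for length and 1 for the difference between fractions.

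Scaling set the level of all fold changes. The median log2 fold change over all loci, 0.71, was 0.30 with TMM, 0.14 with RLE, 1.32 with no filter and 0.29 to 1.26 with a library left out. For motif-dependent loci, 0.91, it was 0.52 with TMM, 0.37 with RLE, 0.67 with TMM on motif-independent loci, 2.03 with no filter and 0.52 to 1.94 with a library left out, and for motif-independent loci 0.015 with TMM, −0.15 with RLE and 0.10 to 0.79 with a library left out. Under TMM, RLE and TMM on motif-independent loci, 21UR-5491 was at −0.42, −0.57 and −0.26, W04D2.7 at −0.53, −0.70 and −0.41 and ZK265.11 at −0.11, −0.27 and −0.023, and C08D8.3 was at −0.041 with TMM and −0.21 with RLE. With a library left out, 21UR-5491 ran between −0.44 and 0.68, 21UR-3180 between −0.082 and 1.97, W04D2.7 between −0.56 and 1.51, ZK265.11 between −0.18 and 1.43 and C08D8.3 between −0.037 and 0.95. The locus at 8781699 was at 4.60 with no filter, 4.60 with DESeq2, 4.47 with the block, 2.78 to 5.85 with a library left out and −0.37 over distinct sequences. The cause was not tested.

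For length, the median difference per motif-dependent locus was −1.60 nt weighted by reads, −1.67 nt with medians, 1.27 nt with at least 10 sequences, a filter that left 1 such locus, and −1.58 to −0.79 nt with a library left out, and per motif-independent locus it was −1.81 to 1.11 nt, above 0 without rescue replicate 2. Loci called for length were 0 to 1 with a library left out (1, *clec-87*, without rescue replicate 1). Between libraries, leaving out each in turn gave −6 to 0 nt for the median, −4.77 to 0.042 nt for the mean and −13.9 to 0.65 percentage points for sequences of 40 nt or more at motif-independent loci, and −1.18 to 2.16 for the log2 ratio of the classes. Over all loci weighted by reads, the median difference was 0 nt and the mean difference 0.024 nt. The share of cluster I kept its direction in every count and with each library left out. Length at motif-dependent loci kept its direction between libraries in every alternative. With 2 libraries each, most motif-dependent loci held too few reads for a test.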
